A study of Mus musculus
Mus spretus with 18 samples.

Results

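Alternative splicing differs between tissues partly because tissues express different RNA-binding proteins that promote or repress the inclusion of exons. The genes described here encode 9 such regulators: Srrm3 and Srrm4, Nova1 and Nova2, and Elavl2, Elavl3 and Elavl4, which are known from neurons, and Esrp1 and Esrp2, which are known from epithelial cells. They were chosen by name, and each was found as 1 row of the 38924 genes with a deposited expression level. In the tables of skipped-exon events they held 65 of the 124450 distinct events. A skipped-exon event is an exon with its neighbours, between which the exon is either included or left out.

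The samples came from F1 hybrids of C57BL/6J females and SPRET/EiJ males, so that each library holds transcripts of a Mus musculus allele and of a Mus spretus allele of each gene. Cerebral cortex, heart, kidney, lung, spleen and liver were taken from 2 female F1 mice at 8 weeks, with 2 libraries per organ. The organs thus share these animals, and the tests across tissues treat their libraries as independent. The embryonic stem cells (ESC) were 2 independent F1 clones in serum-free medium with 2i and LIF, and differ from the organs in being cultured. An F1 fibroblast line was treated for 4 h with 0.1 µM pladienolide B (PladB), an inhibitor of the spliceosome component SF3B1, or with DMSO alone, with 2 libraries for each. The liver libraries stem from an earlier study of the same animals and carry other strain names in their labels. With 2 libraries per group, p-values measure the spread between these animals, clones or cultures, and an organ library averages over all of its cell types.

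SRRM4 and its paralogue SRRM3 activate neuronal microexons, the NOVA proteins bind YCAY motifs and regulate exons of synaptic genes, and the neuronal ELAVL (Hu) proteins bind U-rich RNA and act on splicing and on mRNA stability. The ESRP proteins drive the epithelial forms of genes such as Fgfr2 and Cd44. Many of these regulators also have alternative exons of their own.

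The skipped-exon tables held from 46558287 to 129496306 junction reads per tissue library, from 129067054 to 151755602 per fibroblast library, and from 10338947 to 46793808 per allele and tissue library. The fibroblast reads were longer, so their depth is not a like measure to that of the tissues. In each of the 7 tissues all 5 markers fixed for it were highest in that tissue, and 4 of 5 fibroblast markers were highest in fibroblasts. Kidney replicate 2 stood apart in Chga and Chgb, which mark neuroendocrine cells: Chga was at 0.0776 and 76.5 TPM, the read count scaled to gene length and library total, and Chgb at 0.133 and 101 TPM in replicates 1 and 2. The ESC clones differed in the summed level of 7 epithelial markers, with 2468 TPM in replicate 1 and 866 TPM in replicate 2. Each count of calls was repeated without each library.

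Each of the 7 neural regulators had its highest level in cortex, and the 2 ESRP genes had theirs in liver, kidney or lung. For the comparison of each tissue with the mean of the other 6 tissues, differences are in log2(TPM + 0.1) with their standard error, and a gene was called at a Benjamini-Hochberg adjusted p below 0.05 in limma over 20589 genes and a difference of at least 1. All 9 regulators passed the filter on a mean level of 0.5 TPM over the 18 libraries, but Srrm3 and Elavl4 passed only through cortex, since their means without it were 0.0282 and 0.0963 TPM.

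**Figure D1:**
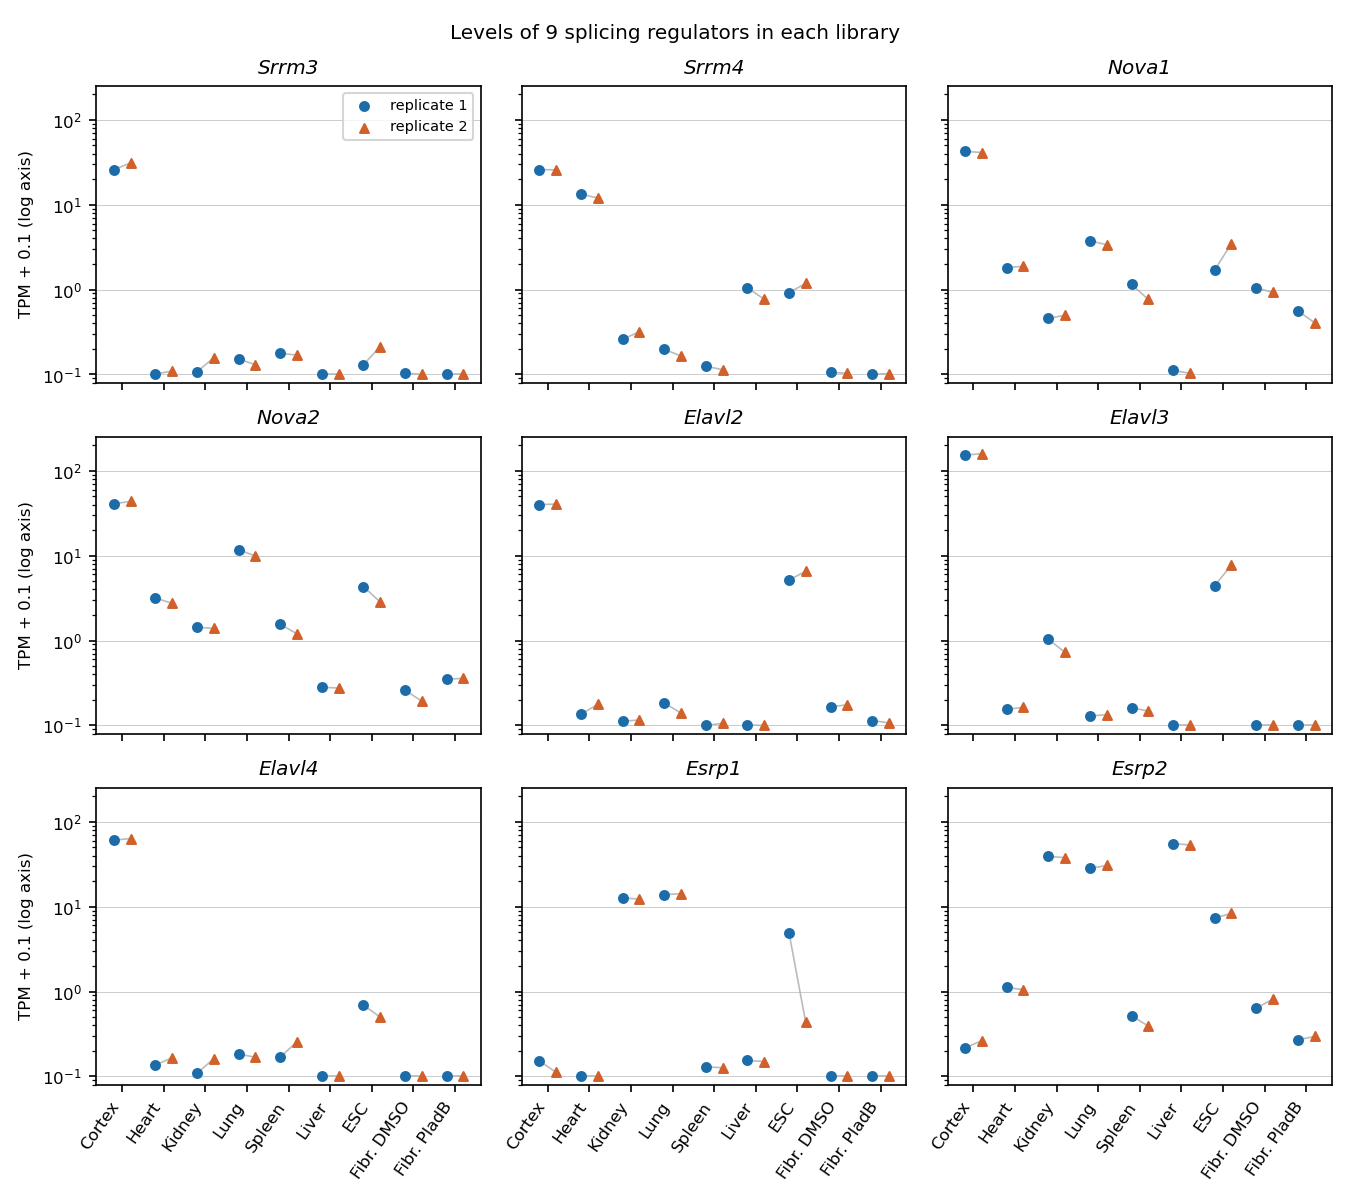
Level of each regulator in each library, as TPM + 0.1 on a log axis, for 7 tissues and for fibroblasts with DMSO or PladB; circles are replicate 1, triangles replicate 2, and a line joins both. The neural genes peak in cortex, Srrm4 is also high in heart (13.2 and 11.9 TPM), and the ESC clones differ in Esrp1 (4.78 and 0.332 TPM).

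Srrm3 was measured at 25.8 and 30.9 TPM in cortex and at no more than 0.113 TPM in any other library. The cortex libraries lay far above the rest, and most other tissues overlapped their neighbours in the order of levels. Mean TPM in cortex was 387-fold that in spleen, the next tissue in order. Since Srrm3 passed the filter on low values through its level in cortex alone, it had to differ there, and this difference is a description with no test. None of the 5 steps between the remaining tissues passed the test (the smallest adjusted p in limma was 0.272).

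Srrm4 had a second site of expression. It was at 25.8 and 25.6 TPM in cortex and at 13.2 and 11.9 TPM in heart. Heart was thus the only tissue besides cortex with more than 2 TPM of this gene: ESC had 0.818 and 1.08 TPM, liver 0.946 and 0.673 TPM, and kidney, lung and spleen no more than 0.218 TPM. Against the mean of the other tissues Srrm4 was higher by 5.32 ± 0.15 in cortex (adjusted p = 9.05e-12, limma) and by 4.11 ± 0.15 in heart (adjusted p = 2.94e-10). Cortex exceeded heart 2.05-fold (adjusted p = 4.17e-04), and heart exceeded ESC 13.2-fold (adjusted p = 4.10e-09). In the heart libraries the 5 cortex markers summed to 49.8 and 37.4 TPM, against 2731 and 2990 TPM in cortex. Slc17a7, a vesicular glutamate transporter, made up nearly all of this, at 49.8 and 37.0 TPM in heart against 851 and 1044 TPM in cortex, and was higher in heart than in the mean of the other tissues by 4.60 ± 0.19 on the log2 scale (adjusted p = 7.35e-10, limma). The other 4 were at no more than 0.181 TPM in heart: Snap25 and Syt1, which encode proteins of synaptic vesicle release, Rbfox3 and Gad1. The 8 neuronal and neuroendocrine markers together were at 13.6 and 17.8 TPM, against 3903 and 4157 TPM in cortex, and their part in the level of Srrm4 was not tested. In bulk tissue, fewer cells of a type and less RNA per cell cannot be told apart.

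Nova1 and Nova2 were the neural regulators with the broadest expression. Nova1 was at 42.4 and 41.0 TPM in cortex, at 3.66 and 3.28 TPM in lung, at 1.60 and 3.37 TPM in ESC and at 1.71 and 1.78 TPM in heart. Nova2 was at 40.6 and 43.5 TPM in cortex, at 11.6 and 9.84 TPM in lung, at 4.22 and 2.75 TPM in ESC and at 3.07 and 2.64 TPM in heart. Both paralogues therefore had the same order of the first 4 tissues, cortex, lung, ESC and heart, although ESC and heart overlapped for both, as did lung and ESC for Nova1. Cortex exceeded lung 12-fold for Nova1 (adjusted p = 3.43e-07, limma) and 3.92-fold for Nova2 (adjusted p = 5.07e-06). Lung exceeded ESC 3.08-fold for Nova2 (adjusted p = 2.48e-05), and 1.40-fold for Nova1, which did not pass the test (adjusted p = 0.108). Liver was lowest for both, with 0.0116 and 0.00329 TPM of Nova1 and 0.181 and 0.176 TPM of Nova2. Against the mean of the other tissues lung was higher by 1.30 ± 0.23 for Nova1 (adjusted p = 2.70e-04) and by 2.12 ± 0.17 for Nova2 (adjusted p = 3.03e-07). The call of Nova1 in lung was lost after quantile normalization, with a difference of 0.50 (adjusted p = 0.0944), and with a pseudocount of 1, with 0.49.

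The Elavl genes were split between cortex and ESC. Elavl3 was the most abundant regulator here, at 153 and 159 TPM in cortex, and was at 4.33 and 7.60 TPM in ESC. Elavl2 was at 39.8 and 40.4 TPM in cortex and at 5.07 and 6.44 TPM in ESC. Elavl4 was at 60.6 and 63.3 TPM in cortex but at only 0.593 and 0.399 TPM in ESC. The cortex libraries exceeded the ESC clones in all 3 genes, 26.1-fold for Elavl3 (adjusted p = 1.84e-09, limma), 6.96-fold for Elavl2 (adjusted p = 2.40e-08) and 125-fold for Elavl4, which passed the filter on low values through cortex alone and is given with no test of this difference. ESC was in turn 93.1-fold above lung, the next tissue, for Elavl2 (adjusted p = 1.17e-10), 7.63-fold above kidney for Elavl3 (adjusted p = 3.40e-07) and 4.42-fold above spleen for Elavl4 (adjusted p = 9.78e-05). Kidney kept a low level of Elavl3, 0.934 and 0.629 TPM, which exceeded heart 13.2-fold (adjusted p = 1.79e-06). The higher of these values belonged to replicate 1, the kidney library with the lower Chga and Chgb. Elavl3 and Elavl4 were listed at 0 in both liver libraries, and Elavl2 was at no more than 0.00122 TPM there.

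Esrp1 and Esrp2 divided the epithelial organs differently. Esrp1 was at 12.6 and 12.1 TPM in kidney and at 13.7 and 14.1 TPM in lung, but at 0.0545 and 0.0493 TPM in liver. Esrp2 was at 55.3 and 53.2 TPM in liver, at 38.9 and 37.7 TPM in kidney and at 28.0 and 30.4 TPM in lung. Liver thus held the highest level of one paralogue and next to none of the other. For Esrp2 liver exceeded kidney 1.42-fold (adjusted p = 0.0205, limma, but below the log2 limit of 1) and kidney exceeded lung 1.31-fold (adjusted p = 0.0709), so neither step was called. For Esrp1 lung and kidney differed by 0.17 ± 0.75 (adjusted p = 0.866), in a fit in which all groups share one estimate of the spread. Within the epithelial organs the replicates of Esrp1 were close, but the ESC clones were at 4.78 and 0.332 TPM, whereas they held 7.20 and 8.26 TPM of Esrp2. The clone with more Esrp1 was the one with the higher sum of epithelial markers. Both genes were low in cortex, with Esrp1 at 0.0527 and 0.0113 TPM and Esrp2 at 0.117 and 0.164 TPM. Esrp2 was also found in heart at 1.02 and 0.952 TPM, where Esrp1 was listed at 0.

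Counted over the regulators, cortex had 7 higher and 2 lower, read against 55.6% of all genes called in either direction (34.9% higher and 20.7% lower). Srrm3 and Elavl4, counted among the 7, passed the filter through cortex alone and had to differ there. In every other comparison cortex is part of the mean of the other tissues. The lower calls of these genes elsewhere thus carry their level in cortex and are descriptions. Lung had 4 higher (both Nova and both Esrp genes) and 5 lower, beside 41.5% of all genes called (26.5% higher and 15.0% lower). Kidney had 2 higher (the Esrp genes) and 6 lower, beside 35.5% (16.9% higher and 18.6% lower). Heart had 1 higher (Srrm4) and 6 lower, beside 49.7% (12.0% higher and 37.7% lower). Liver had 1 higher (Esrp2) and 7 lower, beside 76.6%, with 8.24% of all genes higher and 68.4% lower there. Spleen had 0 higher, beside 27.0% of all genes, and 7 lower, beside 22.4% lower and 49.4% in either direction. There all 9 regulators had an adjusted p below 0.05 in limma. ESC had 2 higher (Elavl2 by 4.16 ± 0.14 and Elavl3 by 3.30 ± 0.18) and 0 lower, beside 61.3% (35.8% higher and 25.5% lower). In ESC 6 regulators had an adjusted p below 0.05 in limma. Without ESC replicate 2, which leaves 1 ESC library, Esrp1 was higher by 3.04 and Srrm3 was at -1.27. The value of Srrm3 is against a mean that includes cortex, the tissue that carried it past the filter, and is a description. Since these shares of all genes are large, a call as such is nothing particular to the regulators.

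Of the 54 steps between tissues next to each other in the order of levels of a gene, 22 were called, and in 16 the libraries of both tissues overlapped. Between all pairs of tissues and over all genes the called share was 57.7%. That share also holds pairs far apart in the order of levels, so it is not a like measure for steps between neighbours. The steps that were not called lie mostly among tissues in which the gene was below 1 TPM.

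Quantile normalization moved the median difference of all genes in every comparison by more than 0.1, and in cortex it became -0.39 and in liver -0.21. The share of higher genes among all calls was 62.8% in cortex before it and 40.9% after it. For heart these shares were 24.1% and 45.6%, for lung 63.9% and 43.9%, for spleen 54.7% and 42.6% and for liver 10.8% and 40.8%. Relative to the median of all genes as deposited, the differences in cortex ranged from 4.03 for Nova2 to 8.44 for Elavl3 among the neural genes. Among the tissues, 1 regulator was called only after this scaling and with the other sign: Srrm4 in liver was at -0.33 with TPM as deposited (adjusted p = 0.0529, limma) and at 1.41 after it (adjusted p = 1.99e-04). Differences near 0 that were called in neither case also changed their sign, for Nova2 in heart (-0.06 and 0.58) and in ESC (0.23 and -0.18) and for Elavl3 in kidney (0.09 and -0.53). The call of Esrp1 in liver, -2.51 as deposited, was lost at -1.17 (adjusted p = 0.0591), and Nova1 in spleen, -0.94 as deposited, was called at -1.44.

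Other regulators of neural splicing and their controllers, a list of 13 genes chosen by known function, were mostly higher in cortex as well. There 11 of them were higher and 2 lower, beside 34.9% and 20.7% of all genes, with a median difference of 2.45 beside 0.39 for all genes, and 9 were higher and 2 lower after quantile normalization. The 2 lower ones were Ptbp1, a repressor of neuronal exons, at 25.0 and 22.4 TPM in cortex and at 324 and 372 TPM in ESC, and Rest, the repressor of neuronal genes that also acts on Srrm4, at 4.38 and 3.76 TPM in cortex and at 80.6 and 77.2 TPM in ESC. In heart 2 of the 13 were higher and 5 lower, beside 12.0% and 37.7% of all genes, with a median of -0.86 beside -0.68 for all genes. After quantile normalization 5 were higher and 4 lower there. Rbfox1, a regulator of neuronal and muscle exons, was at 27.7 and 27.9 TPM in heart and at 244 and 245 TPM in cortex. In liver all 13 were lower, beside 68.4% of all genes, with a median of -1.68 beside -1.57 for all genes, but after quantile normalization 3 were. In lung none of the 13 was called in either direction in limma with TPM as deposited, beside 41.5% of all genes, and 6 had an unadjusted p below 0.05. In kidney 6 were lower, beside 18.6% of all genes.

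Of 6 further epithelial regulators, 4 were higher and 1 lower in kidney, 5 higher and none lower in lung, and 1 higher and 5 lower in liver. Of all genes 16.9% were higher and 18.6% lower in kidney, 26.5% and 15.0% in lung, and 8.24% and 68.4% in liver. After quantile normalization the counts in kidney and lung were the same, and in liver 3 were lower. Grhl2, an activator of epithelial genes, was at 9.02 and 8.25 TPM in kidney, at 14 and 15 TPM in lung and at 0.0900 and 0.0732 TPM in liver, and so was low in liver as Esrp1 was. Rbm47, an RNA-binding protein of epithelial cells, was the one that was higher in liver, at 15.8 TPM in both libraries. In cortex 3 of the 6 were higher, Zeb1 and Zeb2, which repress epithelial genes, and Ovol2, and 3 were lower. After quantile normalization Zeb1 and Zeb2 were also among the 5 called higher in lung, where Rbm47 was not called. The count in lung thus mixes repressors of epithelial genes with activators. In kidney the 1 called lower after this scaling was Zeb1. The 7 epithelial markers were all higher in lung, 5 were higher in kidney and 2 were higher in liver, where 4 were lower.

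The genes with the profiles most like a regulator were found by the root mean square difference of log2(TPM + 0.1), each gene centred on its own mean, over the 14 tissue libraries. For Srrm3 this was Amer3 (0.20), for Elavl2 Pnma2 (0.22), for Elavl4 Dlgap2 (0.32), for Elavl3 Cntnap2 (0.64), for Nova1 Ndn (0.49) and for Nova2 B4galt2 (0.47). Srrm4 had no profile as close, with Homer2 nearest at 0.91. The nearest genes to the ESRP genes were Ccdc64b for Esrp1 (0.76) and Cblc for Esrp2 (0.65).

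PladB was compared with DMSO in fibroblasts to see how inhibition of the spliceosome bears on the regulators. Nova1 fell from 0.950 and 0.823 TPM with DMSO to 0.461 and 0.307 TPM with PladB, and Esrp2 fell from 0.538 and 0.712 TPM to 0.169 and 0.195 TPM. In both genes the DMSO libraries lay above the PladB libraries. The differences were -1.04 ± 0.30 for Nova1 (adjusted p = 0.00975, limma) and -1.35 ± 0.18 for Esrp2 (adjusted p = 2.33e-05), and 2 of 9 regulators were called, both lower, beside 39.0% of all genes called lower and 42.0% in either direction. All genes had a median of -0.55, so that the excess over it was -0.49 for Nova1 and -0.80 for Esrp2. Both calls were lost after quantile normalization (differences of -0.05 and -0.34), after which 44.3% of all calls were higher in place of 7.14%, and with a pseudocount of 1 (-0.45 and -0.46). The call of Nova1 was also lost without DMSO replicate 1 (-0.95) or without PladB replicate 2 (-0.81). Nova2 was at 0.159 and 0.0936 TPM with DMSO and at 0.249 and 0.259 TPM with PladB (0.66 ± 0.22, adjusted p = 0.0229, not called), and was called as higher by 1.10 after quantile normalization. The other 6 regulators were at no more than 0.0749 TPM in all 4 fibroblast libraries.

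Among the 13 further neural regulators 7 were lower and none higher with PladB, where 39.0% of all genes were lower. Mbnl2, which regulates developmental switches of splicing, went from 258 and 260 TPM to 45.2 and 43.8 TPM, and Rbfox2 from 103 and 96.9 TPM to 30.3 and 29.2 TPM. The median of the list was -1.04 beside -0.55 for all genes. After quantile normalization 1 of the 13, Mbnl2, was lower.

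The transcripts of the regulators were themselves spliced in more than one way. The percent spliced in (PSI) is the share of transcripts that include the exon, from junction reads divided by the effective length of each form. An event was taken as measured in a group where each library had 20 or more junction reads over it. Cortex listed 33 events of these genes, kidney 25, ESC 20, lung 19, liver 6, heart 4 and spleen 1, and fibroblasts listed 1, in Nova1. Of 98 measured values in the 7 tissues, an event in a tissue each, 79 were above 0.9, 16 lay from 0.1 to 0.9 and 3 were below 0.1. All 12 values of Nova2, all 7 of Elavl3 and all 3 of Srrm4 were above 0.9, as were 25 of 26 of Esrp2. The intermediate values belonged to 8 exons of 6 genes, and 3 of these exons have a length that is a multiple of 3.

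**Figure D2:**
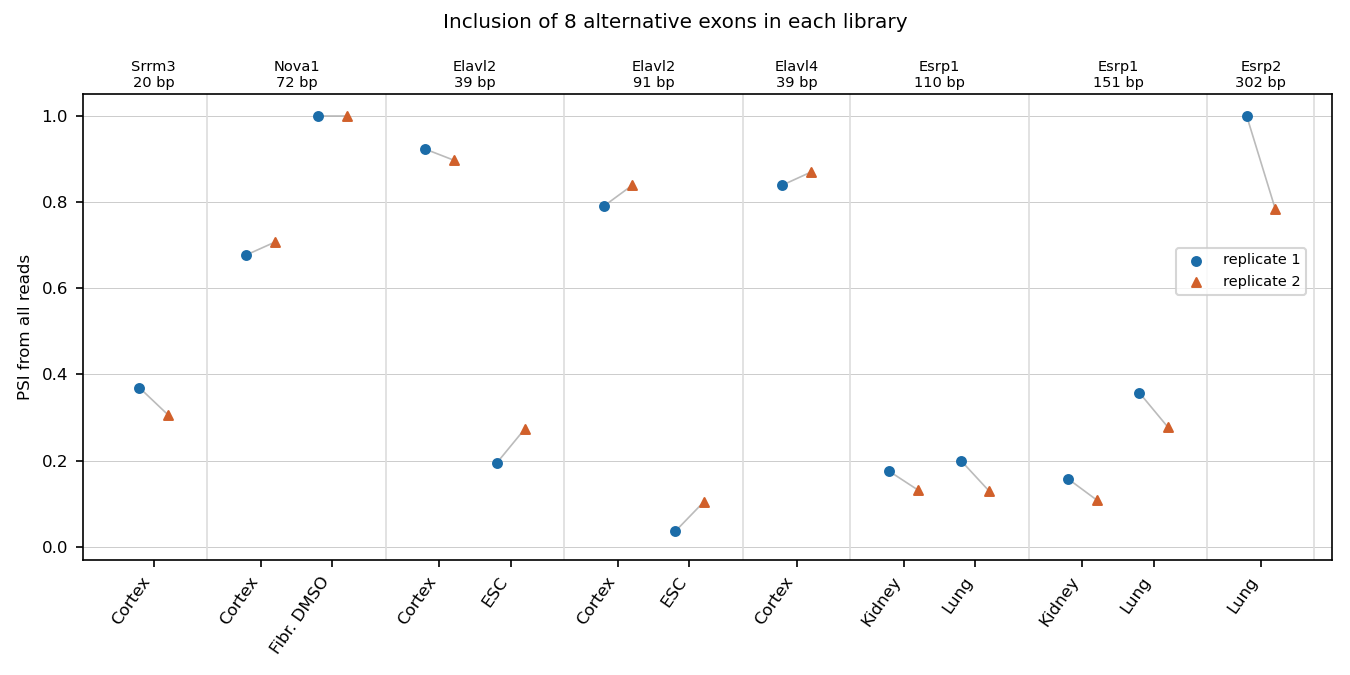
PSI of the 8 alternative exons, each with 1 choice of neighbouring exons (for the 91-bp exon of Elavl2, the neighbour at 91371900), in each library with at least 20 reads in both replicates, from all reads; circles are replicate 1, triangles replicate 2, and vertical lines part the exons. The exons of Elavl2 are mostly included in cortex (0.923 and 0.897 for the 39-bp exon) and mostly skipped in ESC (0.194 and 0.274), and those of Esrp1 are mostly skipped in kidney and lung.

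The largest changes between tissues were in Elavl2, which lies on the minus strand of chromosome 4 (91211533 to 91400108, mm10). A 39-bp exon at 91254141 to 91254179 was included at 0.923 and 0.897 in cortex and at 0.194 and 0.274 in ESC. With a neighbouring exon end 3 bp away, at 91253570 in place of 91253567, the same exon was at 0.957 and 0.966 in cortex and at 0.120 and 0.170 in ESC. The cortex and ESC libraries did not overlap with either neighbour. The change was called in both events, with a range of 0.676 (adjusted p = 5.40e-04, quasi-binomial F test) and of 0.816 (adjusted p = 1.30e-04). In lung this exon had only 2 and 7 reads. With the exon that starts at 91263992 as its neighbour, it was at 0.993 and 1.00 in cortex, and the ESC clones had 9 and 20 reads. Those inclusion reads also hold a junction that transcripts with the 226-bp exon between use. The junction that leaves that exon out had 17 reads in each cortex library, so these values are not inclusion within such transcripts.

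A 91-bp exon of Elavl2, at 91311573 to 91311663, was listed with more than 1 neighbouring exon. Next to an exon that starts at 91371900 its PSI was 0.790 and 0.839 in cortex and 0.0353 and 0.104 in ESC (range 0.745, adjusted p = 3.92e-04, quasi-binomial F test). Next to one that starts at 91375936 it was 0.865 and 0.833 in cortex and 0.636 and 0.700 in ESC, but there the ESC clones had only 9 and 17 reads and no test was made. With one that starts at 91372892 it was 0.937 and 0.943 in cortex. The low inclusion in ESC was thus measured only with the neighbour at 91371900.

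The paralogue Elavl4 (chromosome 4, 110203737 to 110351939) has a 39-bp exon of the same length, at 110209740 to 110209778, that was included at 0.839 and 0.869 in cortex, the one tissue in which the gene had enough reads. With the neighbouring exon end at 110206701 in place of 110206659, inclusion was 0.966 and 0.986. An 87-bp exon further upstream was rarely used, at 0.0459 and 0.00832 in cortex. Elavl3 (chromosome 9, 22015005 to 22052146) also has a 39-bp exon, at 22024674 to 22024712, but it was included at 0.995 and 0.997 in cortex and at 0.909 and 1.00 in ESC, and did not pass the test (range 0.0418, adjusted p = 0.810, quasi-binomial F test). Exons of 39 bp in these paralogues thus ran from nearly constitutive in Elavl3 to switched between cortex and ESC in Elavl2.

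Nova1 (chromosome 12, 46697895 to 46819480) had a single event, a 72-bp exon at 46713498 to 46713569. Its PSI was 0.677 and 0.707 in cortex, from 1500 and 1504 reads, and 1.00 in both fibroblast libraries with DMSO, from 49 and 37 reads. With PladB only 8 reads per library covered it, and no regulator had an event that could be tested for PladB against DMSO, a test that called 8.37% of all events. Nova2 (chromosome 7, 18925888 to 18965319) had no event below 0.9. Srrm3 (chromosome 5, 135806860 to 135874773) had a 20-bp exon at 135867127 to 135867146, within the size range of the microexons that its protein acts on, with a PSI of 0.369 and 0.306 in cortex from 26 and 73 reads. The paralogue Srrm4 (chromosome 5, 116439268 to 116592562) had no event below 0.9, in cortex or in heart.

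Esrp1 (chromosome 4, 11331933 to 11386783) had 2 neighbouring alternative exons, of 110 bp at 11338722 to 11338831 and of 151 bp at 11344112 to 11344262. Transcripts that skipped both, measured by 1 shared skipping junction with 222 and 304 reads in kidney and 218 and 231 reads in lung, were the commonest form. Against that junction the 110-bp exon had a PSI of 0.175 and 0.131 in kidney and of 0.200 and 0.128 in lung, and the 151-bp exon had one of 0.157 and 0.109 in kidney and of 0.357 and 0.277 in lung. The 151-bp exon was thus included more in lung, and its libraries did not overlap with those of kidney. The difference was called (range 0.184, adjusted p = 0.0239, quasi-binomial F test), but was lost without kidney replicate 2 (adjusted p = 0.175) or without lung replicate 1 (adjusted p = 0.119). With the 110-bp exon as its neighbour, the 151-bp exon was at 0.568 and 0.488 in kidney and at 0.811 and 0.752 in lung (range 0.254, adjusted p = 0.0603). The inclusion reads of this event also hold a junction that transcripts without the 110-bp exon use. These values are thus not inclusion within transcripts that hold the 110-bp exon. The 110-bp exon did not pass the test (range 0.0111, adjusted p = 0.977). In ESC the 2 clones, in the order of the deposited list, had 51 and 5 reads over the 110-bp event.

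Esrp2 (chromosome 8, 106130319 to 106137193) was spliced nearly uniformly. Its 1 exception, a 302-bp exon at 106133009 to 106133310, was at 1.00 and 0.784 in lung, where the 49 skipping reads all came from replicate 2. Over all regulators 26 events could be tested across tissues and 4 were called, beside 7.63% of all 47963 events tested. They were the 3 events of Elavl2 and 1 of Esrp1 described above. Of the Elavl2 events 2 are the same 39-bp exon with neighbour ends 3 bp apart. Such events share reads, so the counts of events are not counts of separate exons. The count went from 3 to 8 when single libraries were left out, with 8 reached without ESC replicate 1, and was 3 without kidney replicate 2 or lung replicate 1.

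Exons known as targets of these or related regulators were also read. Ptbp2 encodes the neuronal PTB protein, and its 34-bp exon (chromosome 3, 119724612 to 119724645) is one whose skipping breaks the reading frame. Its PSI was 0.951 and 0.973 in cortex, 0.884 and 0.872 in ESC and 0.873 and 0.869 in heart. It was 0.471 and 0.508 in kidney, 0.393 and 0.517 in liver, 0.326 and 0.183 in lung and 0.0953 and 0.0320 in spleen. Cortex, heart and ESC did not overlap with the other 4 tissues, and the range of 0.898 passed the test (adjusted p = 3.01e-07, quasi-binomial F test). In fibroblasts its inclusion rose from 0.574 and 0.629 with DMSO to 0.888 and 0.925 with PladB (difference 0.305, adjusted p = 5.55e-05). The level of Ptbp1, which represses this exon, was 25.0 and 22.4 TPM in cortex, 31.4 and 32.2 TPM in heart and 195 and 194 TPM in spleen, but also 324 and 372 TPM in ESC, and went from 261 and 256 TPM with DMSO to 118 and 121 TPM with PladB. Liver had 40.6 TPM of Ptbp1 in both libraries. The part of Ptbp1 in the inclusion of this exon was not tested.

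**Figure D3:**
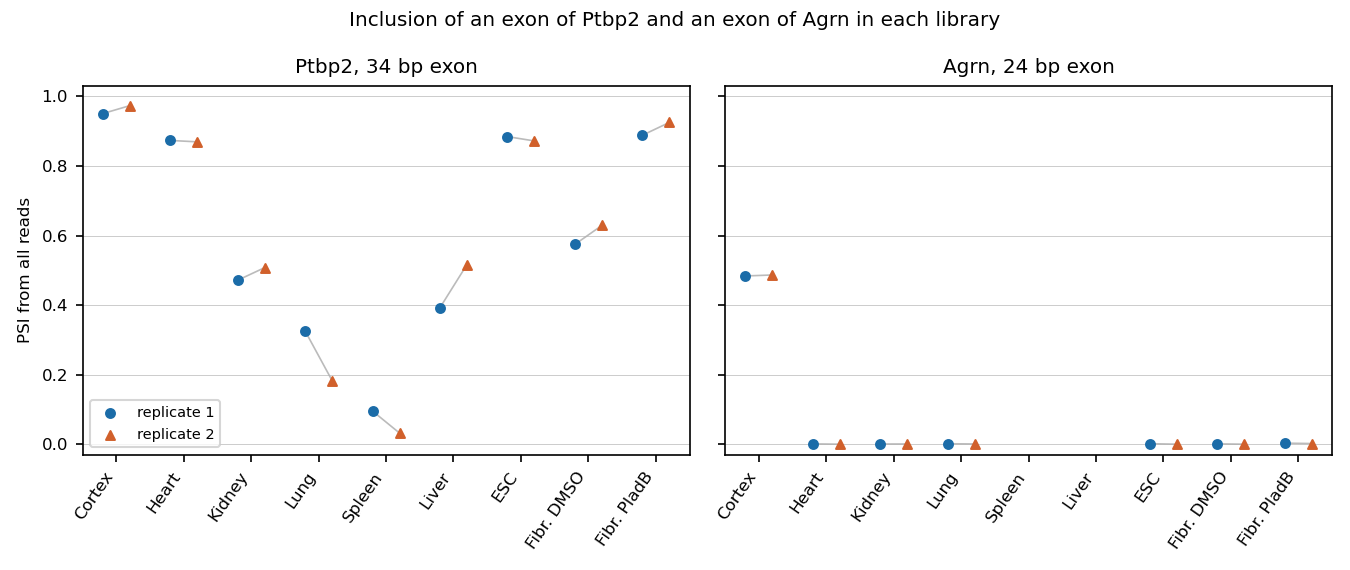
PSI of the 34-bp exon of Ptbp2 (left) and of the 24-bp exon of Agrn (right) in each library, from all reads; circles are replicate 1, triangles replicate 2, and groups without points list no such event. Inclusion for Ptbp2 runs from 0.0320 in spleen to 0.973 in cortex and rises with PladB, whereas the Agrn exon is included only in cortex (0.484 and 0.487) among the groups that list it, the ESC and the other organs being at or near 0.

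Agrn encodes agrin, the organizer of the neuromuscular synapse, and a pair of its microexons are NOVA-regulated neuronal exons. The 24-bp exon (chromosome 4, 156168546 to 156168569) was included at 0.484 and 0.487 in cortex and at no more than 0.00294 in heart, kidney, lung, ESC and fibroblasts, with 697 or more reads in each of these libraries (range 0.485, adjusted p = 1.21e-08, quasi-binomial F test). The 33-bp exon (chromosome 4, 156167777 to 156167809) was at 0.201 and 0.216 in cortex and at 0.00524 and 0.0147 in ESC (range 0.199, adjusted p = 2.73e-04). Heart, with Srrm4 at a level that cortex exceeded 2.05-fold, and lung, with 11.6 and 9.84 TPM of Nova2, included the 24-bp exon at 0.000917 and 0 and at 0.00129 and 0.000652. The part of these regulators in its inclusion was not tested. In cortex the alleles differed at the 33-bp exon, which the C57BL/6J allele included at 0.333 and 0.351 and the SPRET/EiJ allele at 0.0998 and 0.0866 (difference 0.249, adjusted p = 0.00186). At the 24-bp exon they were at 0.546 and 0.554 and at 0.441 and 0.428, which did not pass the test (adjusted p = 0.0833). No event was listed for a 63-bp exon of Enah.

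In an F1 hybrid both alleles of a gene are read in the same cells, which is why a difference between them is taken to act in cis. The inclusion of the regulators' own exons was compared between the alleles in 52 tests, 20 in cortex, 14 in kidney, 8 in lung, 5 in ESC, 4 in liver and 1 in heart, where each allele had at least 20 reads in each library. None was called by the quasi-binomial F test, with 4 at an unadjusted p below 0.05, beside called shares of 1.67% in cortex, 1.46% in kidney, 1.65% in lung, 0.0388% in ESC, 0.899% in liver and 1.53% in heart over all events. The lowest p-values and the largest differences in kidney and lung belonged to the 110-bp exon of Esrp1. In kidney the C57BL/6J allele included it at 0.266 and 0.241, and the SPRET/EiJ allele at 0.116 and 0.0642. In lung these values were 0.378 and 0.200 for C57BL/6J and 0.00813 and 0.0827 for SPRET/EiJ. The C57BL/6J allele was higher in 4 of 4 libraries, by 0.164 in kidney (p = 0.00425, adjusted p = 0.120, quasi-binomial F test) and by 0.244 in lung (p = 0.00458, adjusted p = 0.127). The SPRET/EiJ allele had 53 and 58 reads in kidney and 62 and 72 in lung, and the lung difference was 0.117 without replicate 1 and 0.370 without replicate 2. The 39-bp exon of Elavl2 did not pass the test in cortex (adjusted p = 0.605), with inclusion at 0.890 and 0.907 on the C57BL/6J allele and at 0.891 and 0.826 on the SPRET/EiJ allele in cortex.

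The share of reads from each allele was then compared, as the allelic junction reads of all skipped-exon events of a gene, in which a junction can be counted in several events. The 9 regulators gave 16 pairs of gene and tissue with at least 20 allelic reads per library. Esrp1 was called in both of its tissues: C57BL/6J contributed 66.6% and 65.9% of the reads in kidney and 63% and 62.8% in lung. All 4 libraries lay above those of every other regulator but the first ESC clone for Esrp2. The log2 ratios of C57BL/6J to SPRET/EiJ reads were 0.97 ± 0.08 in kidney (adjusted p = 3.57e-04, limma) and 0.76 ± 0.14 in lung (adjusted p = 4.44e-04), and 2 of 16 were called beside 21.8% over all genes and tissues (26.1% in kidney and 25.5% in lung). All genes had medians of 0.03 in kidney and 0.04 in lung. Reads over the single event with most reads gave 0.81 and 1.15. Over the events listed in both tissues, the ratio was 1.36 in kidney and 0.76 in lung, so the kidney value depends on the events taken. The difference between the tissues was 0.60 ± 0.18 over these events (adjusted p = 0.0616, limma) and 0.21 ± 0.13 over all events (adjusted p = 0.322). Neither passed the test.

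Esrp2 leaned to the other allele in kidney and liver. C57BL/6J held 44.7% and 42.6% of its reads in kidney and 42.9% and 45.1% in liver, with log2 ratios of -0.37 ± 0.06 (adjusted p = 0.00509, limma) and -0.35 ± 0.07 (adjusted p = 0.0496), both below the limit of 0.5 for a call, beside 19.9% of all genes called in liver. In kidney, over the event with most reads, the ratio was -0.56 and was called. In lung the libraries fell on both sides, at 54.8% and 45.7%, and so did the ESC clones, at 64.8% and 37.4%. The difference in log2 ratio between kidney and lung was -0.38 ± 0.18 (adjusted p = 0.194).

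**Figure D4:**
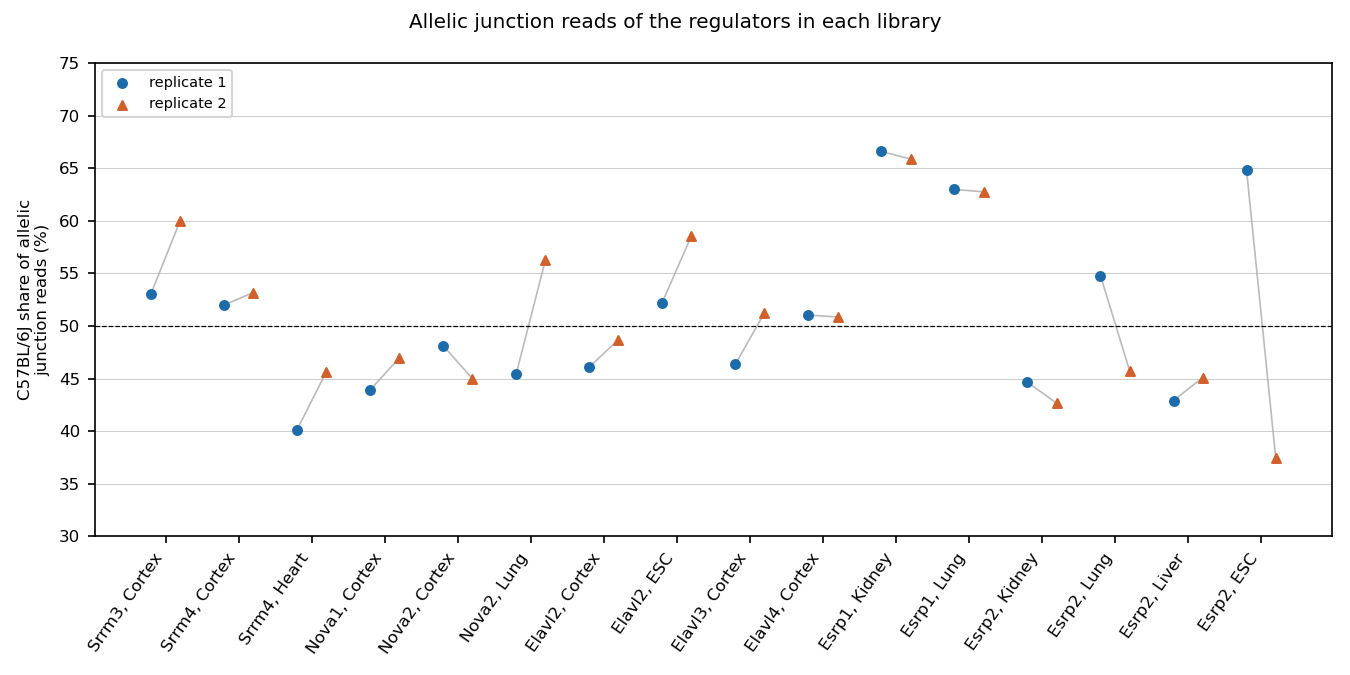
Share of allelic junction reads from C57BL/6J, in percent, for each regulator and tissue with at least 20 allelic reads in both libraries; circles are replicate 1, triangles replicate 2, the dashed line marks 50%, and the axis runs from 30% to 75%. Esrp1 lies between 62.8% and 66.6% in its 4 libraries, and the neural genes lie on either side of 50%.

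None of the neural regulators was called for its allelic read share. In cortex C57BL/6J held 51.0% and 50.9% of the reads of Elavl4, 46.3% and 51.2% of Elavl3, 46.1% and 48.7% of Elavl2, 48.1% and 45.0% of Nova2, 43.9% and 46.9% of Nova1, 52.0% and 53.2% of Srrm4 and 53.0% and 60.0% of Srrm3. Their calls in limma numbered 0, beside 17.7% of all genes in cortex, and 1, Elavl2, had an unadjusted p below 0.05 (0.0371, adjusted p = 0.0856). The most even gene, Elavl4, was also among the deepest, with 2510 and 2586 allelic reads, whereas Srrm3 had 115 and 145. Outside cortex, Nova2 in lung was at 45.4% and 56.3%, Elavl2 in ESC at 52.2% and 58.6%, and Srrm4 in heart at 40.1% and 45.6%, with 0 calls beside 25.3% of all genes in heart and 16.1% in ESC.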

How the data were processed

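The study measured strand-specific mRNA-seq in 18 libraries, 2 for each of 7 tissues and 2 for each of 2 fibroblast groups. The authors aligned reads with HISAT2 2.0.1 to the C57BL/6J (mm10) and a SPRET/EiJ genome and gave reads to an allele by edit distance. They trimmed the longer tissue reads to 76 bp. The effective skipping length was 75 read positions in tissues and 149 in fibroblasts. Junction counts and PSI of fibroblasts thus rest on longer reads than those of tissues. The deposited TPM values were made by the authors with featureCounts on Ensembl 74, with strand. The deposited junction counts are rMATS counts, raw, with both replicates of a group in 1 list. The other columns that the authors deposited, such as effective lengths, are scores written by rMATS and were used only for PSI. The deposited FDR, p-value and inclusion level difference columns hold the authors' comparisons and were not used. An event that a table does not list gave no measurement.

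Samples were grouped by their labels. The place of a count in its list names its replicate, since no label ties it to a library. The column of each allele was checked with imprinted genes, such as Snrpn, where 0.0620% of cortex reads were on the maternal C57BL/6J allele. In ESC these genes did not tell the alleles apart (50.2% for Snrpn), and in liver only Impact had reads (29.2%). There the check was the log2 allelic ratio across genes with at least 100 reads, whose Spearman correlation with cortex was 0.271 over 6799 genes in ESC and 0.370 over 4752 in liver, positive as in every other group. Levels were fitted as log2(TPM + 0.1) with limma 3.58.1 (R 4.3.3), 1 fit over 18 libraries with a trend, for 20589 genes with a mean of at least 0.5 TPM. Inclusion was tested with a quasi-binomial model of the counts on the 19 autosomes, with a dispersion of at least 1 moderated along depth toward a prior from events with at least 10 inclusion and 10 skipping reads per group. The form of this prior was settled after a first form had been run on these data. Calls needed an adjusted p below 0.05 and a PSI difference of 0.1. Allelic events also needed a PSI within 0.1 of that from all reads. Allelic ratios were tested with limma on log2 ratios with 0.5 added to each count, with a limit of 0.5 and at least 20 reads per library. A junction count carries counting error and is not a count of molecules.

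The fits of levels in cortex, of inclusion across tissues and of the allelic read share in cortex were tested on simulated data. Set log2 changes in level of 1.5 and 3 were recovered in 91% and 100% of genes. For log2 changes of 1 and 2 in the allelic share, 91% and 99% were. For inclusion, changes of 1 and 2 in the log odds in 1 tissue were recovered in only 29% and 68% of events. An event that did not pass may thus still have changed. Both alleles come from the same library, and their differences between replicates correlated at 0.0404 to 0.401. The regulators, the further lists and the tests were chosen with earlier results of these data known. All 9 regulators are named, and other genes come from lists by known function. Gene positions are those of RefSeq on GRCm38.p6. Alternatives covered the pseudocount, the filter, quantile normalization, read minimums, the dispersion prior, the replicate block and each library left out.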

Additional observations from a re-analysis of the deposited data

Results flagged for a closer look

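The allelic read share of 2 regulators lay on opposite sides of equality in a pair of tissues, with every library of one tissue on one side and every library of the other on the opposite side. For Elavl2 C57BL/6J held under 50% of the reads in both cortex libraries (46.1% and 48.7%) and over 50% in both ESC clones (52.2% and 58.6%). The difference of the log2 ratios was -0.46 ± 0.19 (adjusted p = 0.168, limma over 7038 genes), and -0.47 over the events listed in both tissues (adjusted p = 0.153). For Srrm4 it held 52.0% and 53.2% in cortex and 40.1% and 45.6% in heart, a difference of 0.56 ± 0.21 (adjusted p = 0.131, limma over 6273 genes). The Srrm4 reads lay over different junctions in the 2 tissues, 2 events in cortex and 1 in heart with none in common, so that tissue and junction cannot be told apart. Neither difference passed the correction, and the tests between tissues were added after the data had been seen.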

How the results depend on the processing

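Of 281 repeats of the counts of called regulators, 273 stayed within 1.5 times the count. In ESC the count of 2 was 6 with a pseudocount of 0.01 and went from 2 to 4 without single libraries, reaching 4 without ESC replicate 2. For PladB against DMSO the count of 2 was 0 with a pseudocount of 1, 1 after quantile normalization and went from 1 to 2 without single libraries. Of the steps between neighbouring tissues 22 were called, 14 with a pseudocount of 1, and 21 to 24 without single libraries. For inclusion across tissues the count of 4 went from 3 to 8, with 8 without ESC replicate 1, when 28 regulator events could be tested. With allelic ratios for single libraries, and with differences in PSI between alleles for single libraries, no test was possible, and the signs of called values held. The repeats for single genes and exons covered all regulators in cortex, those called higher in another tissue or called with PladB, the named exons across tissues, the 110-bp exon of Esrp1 between alleles and the allelic ratios, but not the lower calls outside cortex. Of these 637 repeats, 626 kept their side of the threshold, 10 lost it, 1 gained it and none reversed a called value. The cause of these changes was not tested. Depth limits the allelic tests, where the SPRET/EiJ allele of Esrp1 had as few as 53 reads over an event.

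The replicate block was fitted as an alternative. Between organs, samples with the same number deviated together with a correlation of 0.0331 to 0.180, above 0.1 in 6 of 15 pairs, so the numbers were not shown to pair the samples. With the replicate block 9 regulators were called in cortex, 3 in ESC (2 without it) and 2 for PladB against DMSO, and 4 events across tissues, and it changed no call of a regulator between alleles, where 0 were called.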
